A study of Mus musculus with 6 samples.

Results

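The 9 genes described here, Foxj1, Ccdc153, Tmem212, Rsph1, Dynlrb2, Rarres2, Mia, Tekt1 and Mlf1, are markers of ependymal cells and of their motile cilia. They were taken by symbol from the deposited table of read counts, which holds 31276 genes, and all 9 were present and had enough counts to be tested. RNA came from brains of C57BL/6 mice at postnatal day 14, and was compared between 3 samples labelled PRMT5 olig2cre KO (KO) and 3 labelled wild-type (WT). The label of the KO names a deletion of PRMT5, an arginine methyltransferase, by Cre recombinase under Olig2, a transcription factor of the oligodendrocyte lineage. It does not give the floxed allele, whether the WT mice carried such an allele or Cre, how many animals each sample holds, or whether ependymal cells recombined.

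Ependymal cells line the brain ventricles and carry tufts of motile cilia that move cerebrospinal fluid. The transcription factor FOXJ1 switches on the genes that build a motile cilium, and RFX factors bind a paired motif called the X-box in front of many of them. The ciliary shaft, or axoneme, is made of microtubules with inner filament proteins such as tektins, dynein arms that generate the beat, radial spokes that control it, and a transport system that carries parts in and out. Choroid plexus epithelium also carries cilia and uses some of the same genes, and secreted proteins such as chemerin are made by several cell types of the brain surface as well.

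The 5′ ends of the genes were read for the X-box and forkhead letters because these are the motifs of the factors named above. RefSeq promoter windows (GRCm38.p6), from 250 bases before to 50 bases from the annotated start, were found for 6 of the 9 genes, namely Ccdc153, Tmem212, Dynlrb2, Mia, Tekt1 and Mlf1. On either strand, the X-box arm GTTGCC was present in 4 of the 6 genes. By window that was 4 of their 7, against 12.5% of the 32851 windows of all genes. A fuller X-box, spelled GTNNCC, then 1 to 3 of any base, then NGNAAC, was present in 1 gene, Dynlrb2, and in 4.37% of all windows. The forkhead letters GTAAACA were present in 1 gene, Mlf1, and in 3.65% of all windows. The windows of Tmem212 and Mia held none of the 3 motifs. The arm and the fuller X-box overlap in Dynlrb2. Only the letters were matched, and binding was not measured. The 4 windows with a match are printed 5′ to 3′ on the strand of the gene, with the matched letters in capitals.
Dynlrb2, chr8:116504765-116505064, plus strand: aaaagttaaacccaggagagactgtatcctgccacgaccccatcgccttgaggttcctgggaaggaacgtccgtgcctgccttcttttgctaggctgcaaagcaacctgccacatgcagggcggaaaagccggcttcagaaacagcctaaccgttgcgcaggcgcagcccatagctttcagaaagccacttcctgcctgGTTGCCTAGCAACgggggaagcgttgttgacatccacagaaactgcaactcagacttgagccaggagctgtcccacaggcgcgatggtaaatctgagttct
Tekt1, chr11:72361833-72362132, minus strand: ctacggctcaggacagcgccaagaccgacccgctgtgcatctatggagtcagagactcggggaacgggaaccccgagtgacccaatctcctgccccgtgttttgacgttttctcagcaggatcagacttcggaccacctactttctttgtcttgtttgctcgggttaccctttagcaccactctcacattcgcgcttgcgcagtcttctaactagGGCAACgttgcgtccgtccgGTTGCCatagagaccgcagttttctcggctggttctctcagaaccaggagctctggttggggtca
Ccdc153, chr9:44240427-44240726, plus strand: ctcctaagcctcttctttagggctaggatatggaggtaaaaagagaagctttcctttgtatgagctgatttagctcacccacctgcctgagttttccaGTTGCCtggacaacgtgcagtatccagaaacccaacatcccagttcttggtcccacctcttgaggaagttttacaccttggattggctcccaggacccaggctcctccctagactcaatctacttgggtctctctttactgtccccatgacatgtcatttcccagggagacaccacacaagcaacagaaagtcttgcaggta
Mlf1, chr3:67373847-67374146, plus strand: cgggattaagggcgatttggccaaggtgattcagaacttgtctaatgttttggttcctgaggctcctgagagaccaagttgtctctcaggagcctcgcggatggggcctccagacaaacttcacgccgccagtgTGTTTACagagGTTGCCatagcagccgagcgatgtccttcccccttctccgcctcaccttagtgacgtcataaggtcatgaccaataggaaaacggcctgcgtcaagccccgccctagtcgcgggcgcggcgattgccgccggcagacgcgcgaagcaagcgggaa
In Dynlrb2 the fuller X-box reads GTTGCCTAGCAAC and begins at position -51 from the annotated start. Tekt1 has the arm on both strands, beginning at -35 and -15, in its upstream window, and no match in the window of its second annotated start. In Mlf1 the forkhead letters begin at -116 and the arm at -105, and in Ccdc153 the arm begins at -152.

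The libraries held 16365802, 16108457 and 15089140 counts in KO replicates 1 to 3, against 15919292, 15219817 and 16872925 in WT replicates 1 to 3. Prmt5 itself stood at 68.2, 68.4 and 81.6 CPM (read counts scaled to library size and composition) in KO and at 90.8, 90.4 and 91.8 CPM in WT, with a log2 fold change of -0.32 (SE 0.0950; edgeR adjusted p = 0.232, with the replicate number as a block 0.0379). Gabra6, which marks granule neurons of the cerebellum, had 80.0, 0 and 22.1 CPM in the KO libraries and 63.8, 0 and 0 CPM in the WT libraries, so cerebellar transcripts were present in KO replicates 1 and 3 and WT replicate 1 only. Xist, which marks female tissue, was high in KO replicates 1 and 2 and in WT replicate 2, so female samples were not spread evenly over the groups. The 10 markers of the oligodendrocyte lineage summed to 988.4 to 1987 CPM in KO and to 7616 to 10285 CPM in WT, and all 10 fell.

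Every one of the 9 genes had a higher mean in KO brain than in WT brain, and none passed the test. Genes were called at a Benjamini-Hochberg adjusted p under 0.05 over all 16592 genes tested in edgeR's quasi-likelihood test. By that rule 0 of the 9 were called, where 1.2% of all tested genes were (0.241% higher and 0.958% lower in KO). At an unadjusted p under 0.05 there were 5, against 9.67% of all tested genes. In 5 of the 9 every KO library lay above every WT library, against 8.02% of all tested genes, and in 0 of the 9 every KO library lay below, against 7.99%. The median log2 fold change of the 9 was 0.61, and that of all tested genes 0.01, of which 52.3% had a positive value. The 9 genes were chosen with earlier results of these data known, so these shares do not come from an independent choice. DESeq2 called 1 of the 9, Rarres2 (1.89% of its genes were called), and so did edgeR with the replicate number as a block (3.41% were called), also when library offsets were adjusted for gene length (2.98% were called). RNA of brain tissue was sequenced. Differences in ependymal cell number, in RNA per ependymal cell, in expression by other cells and in dissected tissue therefore cannot be told apart. None of these was tested.

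**Figure D1:**
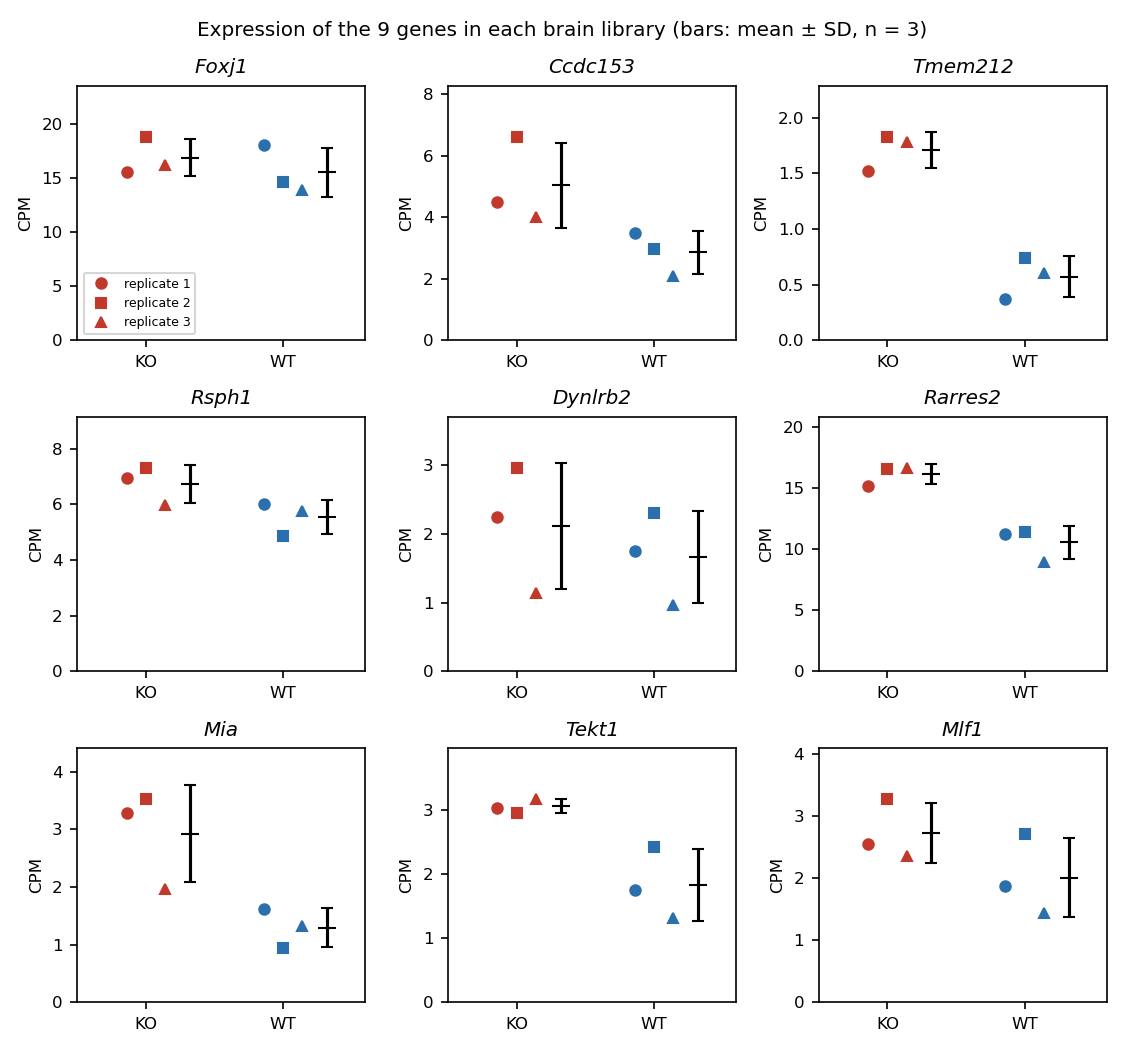
CPM of each of the 9 genes in the 3 KO libraries (red, left) and the 3 WT libraries (blue, right), with marker shapes for the replicate number and black bars for mean ± SD (n = 3). Ccdc153, Tmem212, Rarres2, Mia and Tekt1 show no overlap between the groups, while the other 4 genes overlap.

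Foxj1, the transcription factor that starts motile cilium formation, was the most abundant of the 9 and differed least. Foxj1 (chr11:116330704-116335399, minus strand, mm10) stood at 15.6, 18.8 and 16.3 CPM in KO replicates 1 to 3, against 18.1, 14.7 and 13.9 CPM in WT replicates 1 to 3. The groups overlapped, since WT replicate 1 lay above KO replicates 1 and 3. The means were 16.9 ± 1.70 CPM in KO and 15.6 ± 2.25 CPM in WT (SD, n = 3 each), a log2 fold change of 0.12 (SE 0.148, 95% interval -0.21 to 0.45, edgeR adjusted p = 0.833).

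Of the genes for parts of the axoneme and its transport, Tekt1 had no overlap between groups, and Rsph1 and Dynlrb2 did. Tekt1 (chr11:72344722-72362442, minus strand) encodes a tektin, a filament protein of ciliary microtubules. It stood at 3.04, 2.96 and 3.18 CPM in KO, against 1.75, 2.43 and 1.32 CPM in WT. The 3 KO libraries lay close together, and all lay above the highest WT library. Its log2 fold change was 0.74 (SE 0.295, 95% interval 0.09 to 1.39), with an unadjusted p of 0.0291 and an adjusted p of 0.436 in edgeR.

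Rsph1 (chr17:31255019-31277383, minus strand) encodes a protein of the radial spoke head. It stood at 6.93, 7.31 and 5.97 CPM in KO, against 6.00, 4.87 and 5.78 CPM in WT. Only KO replicate 3 fell within the WT range, just under WT replicate 1. Its log2 fold change was 0.28 (SE 0.187, 95% interval -0.13 to 0.69, edgeR adjusted p = 0.668). Dynlrb2 (chr8:116504974-116515915, plus strand), whose fuller X-box is shown above, encodes a roadblock-type dynein light chain of ciliated cells. It stood at 2.25, 2.96 and 1.14 CPM in KO, against 1.75, 2.3 and 0.963 CPM in WT. In each group replicate 2 was highest and replicate 3 lowest, and the ranges overlapped widely. Its log2 fold change was 0.35 (SE 0.426, 95% interval -0.59 to 1.29, edgeR adjusted p = 0.831), the widest interval of the 9. Its broadly expressed relative Dynlrb1, a dynein light chain gene of most cells, stood at 240.1, 258.2 and 240.5 CPM in KO, against 218.2, 250.5 and 230.9 CPM in WT, with a log2 fold change of 0.08 (SE 0.092, edgeR adjusted p = 0.825). How reads that match both genes were counted is not given in the sources used here.

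Tmem212 and Ccdc153, 2 ependymal markers, had no overlap between groups, and Mlf1 did. Tmem212 (chr3:27866066-27896368, minus strand) encodes a membrane protein. It had 25, 29 and 28 counts in KO, against 6, 11 and 10 counts in WT, which is 1.52, 1.83 and 1.78 CPM in KO and 0.375, 0.743 and 0.602 CPM in WT. The lowest KO library, with 25 counts, lay well above the highest WT library, with 11. Its fold difference of 2.96 (log2 1.57, SE 0.394, 95% interval 0.70 to 2.44) was the largest of the 9, with an unadjusted p of 0.00223 and an adjusted p of 0.13 in edgeR. At this depth 6 counts have an exact Poisson 95% interval of 2.20 to 13.1 counts, which covers counting error only.

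Ccdc153 (chr9:44240676-44247306, plus strand) encodes a coiled-coil protein of motile cilia. It stood at 4.50, 6.62 and 4.0 CPM in KO, against 3.50, 2.97 and 2.11 CPM in WT. KO replicate 2 stood above the other libraries, and the lowest KO library was still above the highest WT library. Its log2 fold change was 0.82 (SE 0.278, 95% interval 0.20 to 1.43, edgeR adjusted p = 0.328). Mlf1 (chr3:67374097-67400003, plus strand) encodes an adaptor protein first found in a leukaemia fusion and is abundant in ciliated cells. It stood at 2.55, 3.28 and 2.35 CPM in KO, against 1.87, 2.70 and 1.44 CPM in WT. WT replicate 2 lay above KO replicates 1 and 3. Its log2 fold change was 0.45 (SE 0.314, 95% interval -0.25 to 1.14, edgeR adjusted p = 0.684).

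The genes for secreted proteins, Rarres2 and Mia, had no overlap between groups. Rarres2 (chr6:48569696-48572789, minus strand) encodes chemerin, a secreted attractant of immune cells. It stood at 15.2, 16.6 and 16.6 CPM in KO, against 11.2, 11.4 and 8.96 CPM in WT. The KO libraries lay close together and all above WT. Its fold difference was 1.53 (log2 0.61, SE 0.146, 95% interval 0.29 to 0.94), with an unadjusted p of 0.00155, the smallest of the 9, and an adjusted p of 0.101 in edgeR. The adjusted p was 0.0479 in DESeq2 and 0.0224 in edgeR with the replicate block. Its annotated exons share 892 bases with Lrrc61 on the opposite strand, so reads may be shared. Lrrc61 stood at 28.3, 21.9 and 24.6 CPM in KO, against 22.8, 20.5 and 22.2 CPM in WT (log2 fold change 0.19, edgeR adjusted p = 0.675).

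Mia (chr7:27179742-27181157, minus strand) encodes a small secreted protein known from cartilage and melanoma. It had 54, 56 and 31 counts in KO, against 26, 14 and 22 counts in WT, or 3.28, 3.53 and 1.97 CPM in KO and 1.62, 0.946 and 1.32 CPM in WT. KO replicate 3 was the lowest of its group and lay nearest to WT. Its fold difference was 2.24 (log2 1.16, SE 0.345, 95% interval 0.40 to 1.93, edgeR adjusted p = 0.235). GENCODE places a read-through gene, Gm21983, over 410 bases of its exons on the same strand.

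**Figure D2:**
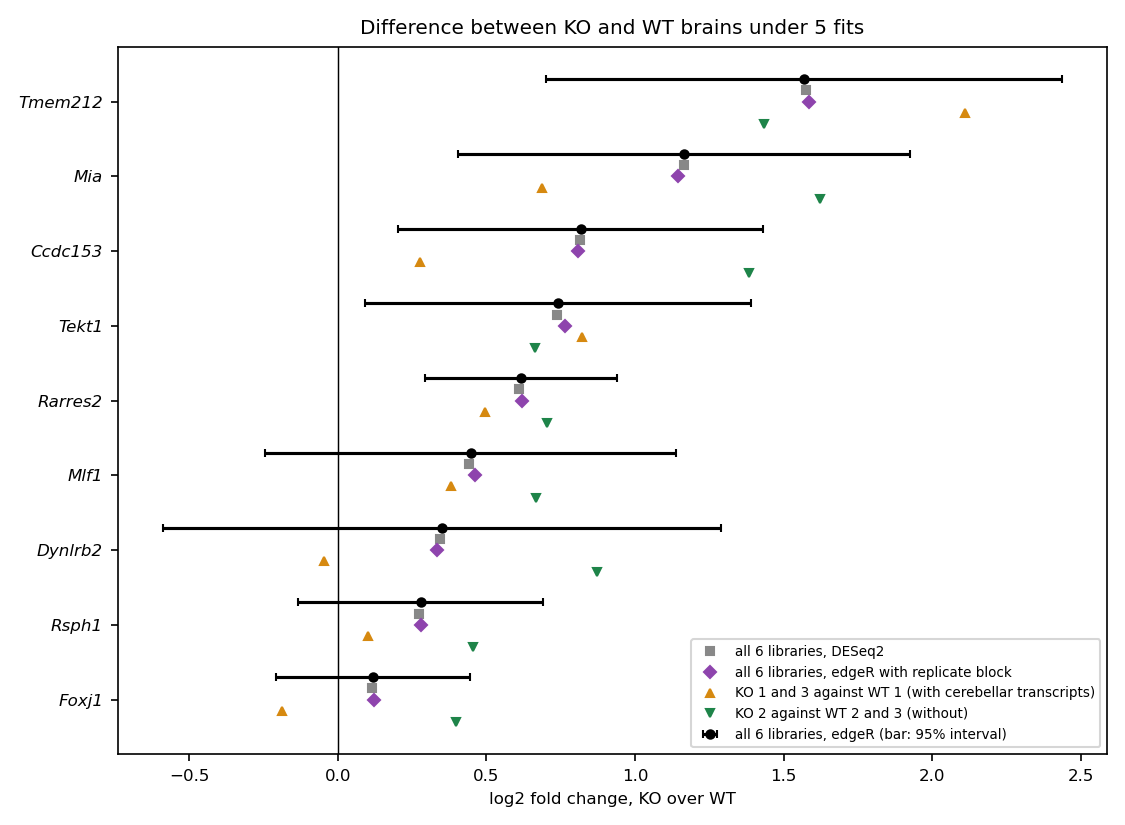
Log2 fold change of KO over WT for each gene in the fit of all 6 libraries with edgeR (black, with its 95% interval), with DESeq2, with edgeR and the replicate block, and within the libraries with or without cerebellar transcripts. The 3 fits of all libraries nearly coincide, and the intervals of Foxj1, Rsph1, Dynlrb2 and Mlf1 include 0.

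For most of the 9 genes the highest library was the same, and so was the lowest. KO replicate 2 held the highest value of all 6 libraries for 7 genes and KO replicate 3 for the other 2, and WT replicate 3 held the lowest value for 6. Summed over the 9 genes, the levels were 54.9, 63.9 and 53.3 CPM in KO, against 46.2, 43.1 and 36.4 CPM in WT. Without Foxj1 and Rarres2, which make up most of that sum, they were 24.1, 28.5 and 20.4 CPM in KO, against 16.9, 16.96 and 13.5 CPM in WT. Neither sum overlapped between groups.

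Split by cerebellar transcripts, both sets of libraries hold a group of 1 library, which is assumed to vary like the other group. Among the libraries without cerebellar transcripts (KO replicate 2 against WT replicates 2 and 3), all 9 log2 fold changes were positive, and Ccdc153 (1.38, adjusted p = 0.00148), Mia (1.62, 0.0179) and Rarres2 (0.70, 0.0190) were called by edgeR, where 7.37% of all tested genes were. Among those with cerebellar transcripts (KO replicates 1 and 3 against WT replicate 1), 7 of the 9 were positive and 0 were called by edgeR, the smallest unadjusted p being 0.0160 for Tmem212. In this comparison Foxj1 had a value of -0.19 and Dynlrb2 of -0.05, and Ccdc153 was at 0.28, while Tmem212 was at 2.11 and Tekt1 at 0.82. The difference between the 2 sets was not tested. Between libraries with and without cerebellar transcripts, with genotype in the fit, 0 of the 9 were called by edgeR and 0 had an unadjusted p under 0.05, where 0.729% of all tested genes were called. With a term for cerebellar transcripts, the KO over WT values were 1.71 for Tmem212, 1.17 for Mia, 0.85 for Ccdc153 and 0.60 for Rarres2. With a term for sex, that of Dynlrb2 was -0.01, and the other 8 were positive.

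Scaled to exon length, levels can be ordered between genes. In KO, Foxj1 (6.45 ± 0.648 CPM per kb of exon) and Rarres2 (6.08 ± 0.306) were highest, followed by Rsph1 (4.91 ± 0.503), Dynlrb2 (3.81 ± 1.65), Mia (2.94 ± 0.843), Ccdc153 (2.48 ± 0.682), Tmem212 (2.39 ± 0.230), Tekt1 (1.89 ± 0.0671) and Mlf1 (1.59 ± 0.283; SD, n = 3). In WT the order was Foxj1 (5.93 ± 0.856 CPM per kb), Rsph1 (4.04 ± 0.437), Rarres2 (3.97 ± 0.516), Dynlrb2 (3.0 ± 1.21), Ccdc153 (1.40 ± 0.345), Mia (1.31 ± 0.342), Mlf1 (1.17 ± 0.372), Tekt1 (1.13 ± 0.345) and Tmem212 (0.801 ± 0.260; SD, n = 3). Between neighbours in the KO order, the libraries of Rarres2 lay above those of Rsph1, and the libraries of Tmem212 above those of Tekt1, while the other neighbours overlapped. In WT, Foxj1 lay above Rsph1 in every library, and all libraries of Dynlrb2 lay just above those of Ccdc153, while the other neighbours overlapped. Tmem212 was lowest in WT and lay above Tekt1 and Mlf1 in KO. Lengths are the union of annotated GENCODE exons, whichever of them are used in brain.

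**Figure D3:**
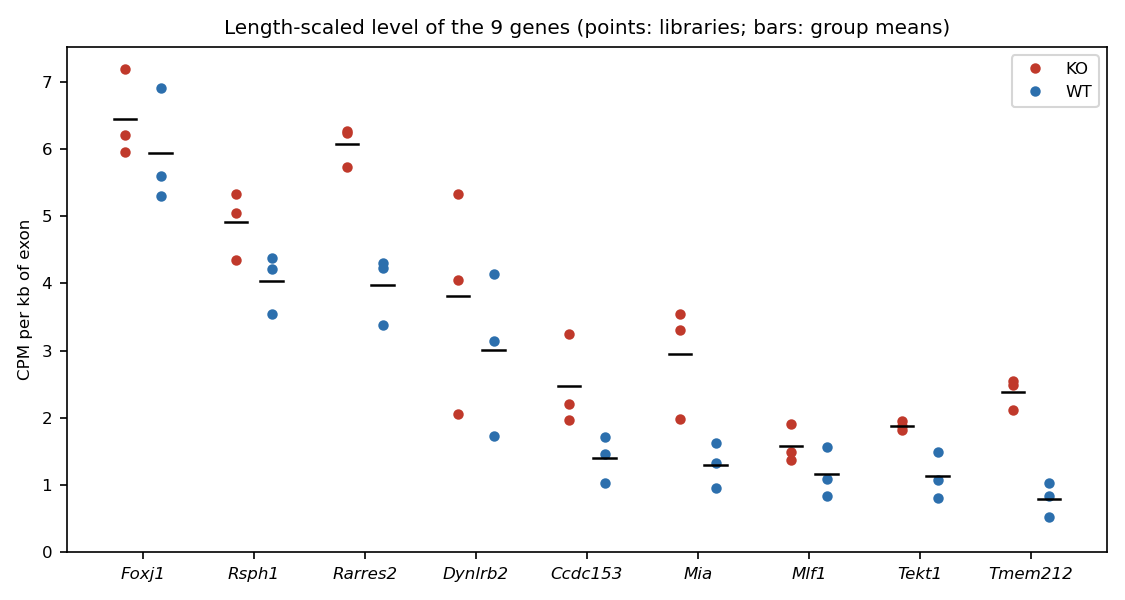
CPM per kb of exon for each gene, in order of the WT mean, with the 3 KO libraries in red at left and the 3 WT libraries in blue at right; bars are group means. Foxj1 is highest in both groups, and Rarres2 lies close to it in KO.

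Other genes of the pathway were drawn from 9 lists of cilium and ependymal genes, of which 139 genes besides the 9 were tested. The lists also hold Foxj1, Rsph1, Tekt1 and Dynlrb2, which are left out of the totals but not of the single lists. Of the 139, 0 rose and 1, Cd9, fell, while 101 had positive values (72.7%, against 52.3% of all tested genes) and the median log2 fold change was 0.14. Over all tested genes 0.241% rose and 0.958% fell. In 18 genes (12.9%) every KO library lay above every WT library, against 8.02% of all tested genes, and in 5 below, against 7.99%. In the 6 lists of axoneme parts together, 49 of 68 genes were positive with a median of 0.16, and 0 were called by edgeR or DESeq2. At an unadjusted p under 0.05 there were 5 of the 68, where 9.67% of all tested genes were. With the replicate block 1 of them rose, Dnaic1.

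Tektins and other proteins inside the ciliary microtubules had the highest median of the axoneme lists, 0.47 over 15 genes, of which 12 were positive and 0 were called by edgeR or DESeq2, with 3 at an unadjusted p under 0.05. Cfap126 (listed as 1700009P17Rik), which encodes a microtubule-associated protein of cilia, had a log2 fold change of 0.56 (SE 0.251, edgeR adjusted p = 0.508).

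Genes of dynein arms and their docking had a median of 0.22 over 16 genes, 12 positive. Dnaic1, a dynein intermediate chain of the outer arm, stood at 6.51, 9.64 and 7.37 CPM in KO, against 4.93, 5.47 and 3.79 CPM in WT. All KO libraries lay above WT, and the log2 fold change was 0.73 (SE 0.221) with an edgeR adjusted p of 0.254, or 0.0490 with the replicate block. Dnah1, an inner arm heavy chain, had a value of 0.52 (SE 0.223, edgeR adjusted p = 0.482). Of 9 assembly factors of the arms 6 were positive (median 0.06), with Dnaaf3 at 1.04 (SE 0.333, edgeR adjusted p = 0.284) and Zmynd10 at 0.40 (SE 0.274), both with no overlap between groups.

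Radial spoke genes had a median of 0.19 over 9 genes, 7 positive, the member Rsph1 included. Cfap61 (listed as 4930529M08Rik), of a spoke-associated complex, had a value of 0.43 (SE 0.222) and Rsph9, of the spoke head, 0.35 (SE 0.182). Central pair genes had a median of 0.10 over 11 genes, 7 positive, and here Cfap69 (listed as A330021E22Rik) was at 0.38 (SE 0.221) and Cfap74 (2010015L04Rik) at 0.20 (SE 0.153). Genes of the nexin-dynein links between microtubules had a median of 0.06 over 10 genes, 7 positive, with Iqcd at 0.65 (SE 0.337) and Ccdc40, part of the ruler that spaces the spokes, at 0.42 (SE 0.238). In these 3 lists 0 genes were called by edgeR or DESeq2 and 0 had an unadjusted p under 0.05.

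Genes shared with primary cilia lay near no difference, as did those of dynein arm assembly and of nexin-dynein links (medians 0.06 and 0.06). Of 28 genes of intraflagellar transport and its dynein, 16 were positive and the median was 0.02, with 0 called by edgeR or DESeq2 and 1 at an unadjusted p under 0.05. That gene, Ift122, of the retrograde transport complex, stood at 31.0, 28.5 and 30.9 CPM in KO, against 33.7, 35.8 and 40.3 CPM in WT (log2 fold change -0.28, SE 0.112, edgeR adjusted p = 0.436). Ift27, a small GTPase of the transport train, was at 0.25 (SE 0.139). Upstream of the axoneme, 15 genes of multiciliation and centriole amplification had a median of 0.21, 11 positive, with 0 called by edgeR or DESeq2 and 1 at an unadjusted p under 0.05. Six3, a homeobox gene needed for ependymal maturation in mice, was at 0.43 (SE 0.160, edgeR adjusted p = 0.391) and Trp73, a p53 family gene that acts before Foxj1, at 0.63 (SE 0.293, edgeR adjusted p = 0.527).

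Other ependymal markers had a median of 0.37 over 32 genes, 28 positive. At an unadjusted p under 0.05 in edgeR there were 8, of which 6 were higher in KO, against 9.67% of all tested genes. In 6 (18.75%) every KO library lay above every WT library, against 8.02% of all tested genes. In 2 every KO library lay below, against 7.99%. The gene that fell, Cd9, encodes a tetraspanin that oligodendrocytes express as well, and stood at 50.6, 49.2 and 44.8 CPM in KO, against 98.2, 75.2 and 73.9 CPM in WT (log2 fold change -0.77, SE 0.121, edgeR adjusted p = 0.00906). Prom1, a membrane protein of ciliated and glial cells, stood at 10.5, 7.62 and 8.58 CPM in KO, against 15.99, 13.8 and 13.2 CPM in WT. Its log2 fold change was -0.69 (SE 0.166; edgeR adjusted p = 0.11, 0.0114 when blocked by replicate number, and 0.0363 in DESeq2). Chosen after their values were seen, Nnat (0.32) and Tppp3 (0.36) also rose with the replicate block, at edgeR adjusted p of 0.0297 and 0.0348. Without the block their edgeR adjusted p were 0.211 and 0.440, and DESeq2 gave adjusted p of 0.0363 for Nnat and 0.426 for Tppp3.

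**Figure D4:**
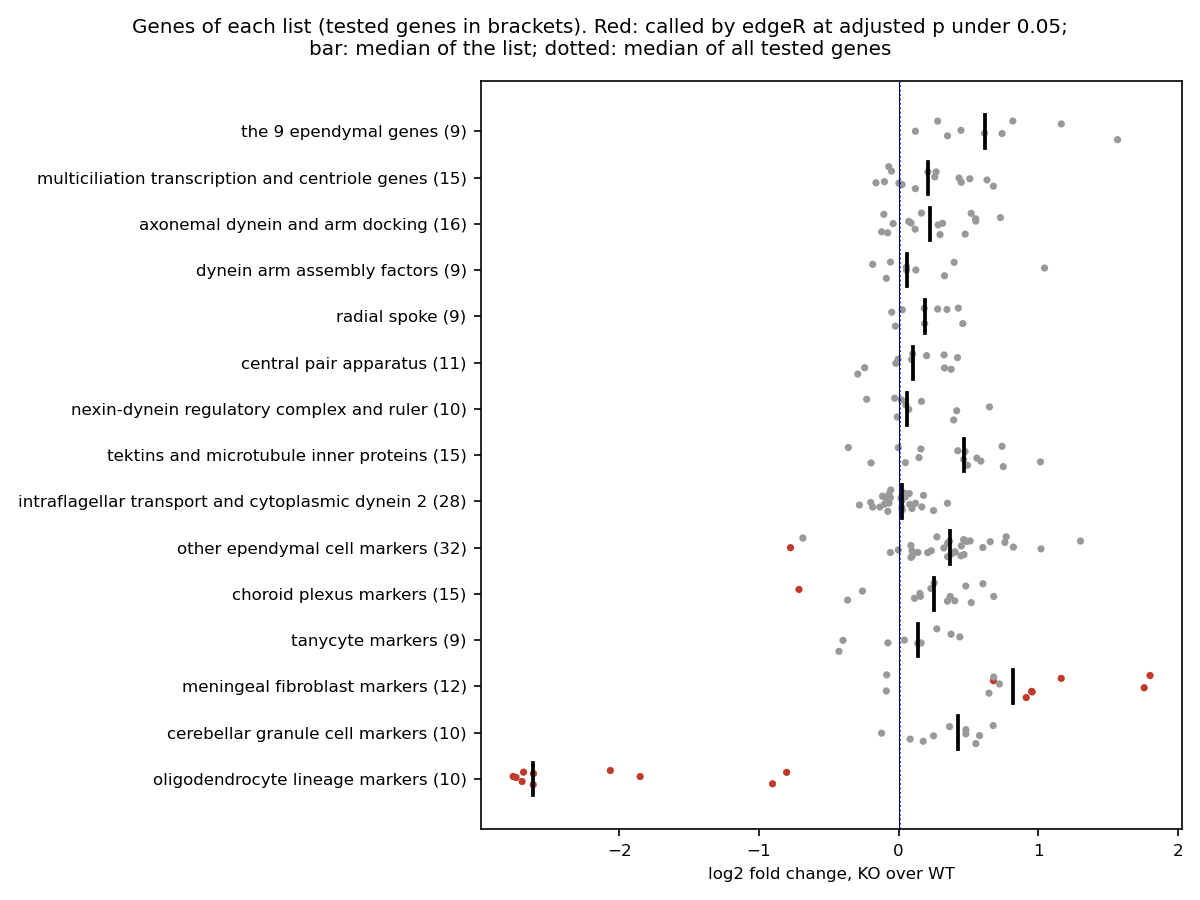
Log2 fold change of KO over WT for every tested gene (points) of each list, with the list median as a black bar, called genes in red and the median of all tested genes dotted. The 9 ependymal genes lie to the right of 0 with a median of 0.61, while transport genes centre on 0.02 and oligodendrocyte genes lie far to the left. Meningeal fibroblast genes have a higher median, 0.82.

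Markers of neighbouring cell types moved with the groups to different extents. Of 12 meningeal fibroblast genes 7 rose, or 10 with the replicate block and 9 with DESeq2, and the summed level was 426.8 to 681.2 CPM in KO and 289.6 to 329.7 CPM in WT, with Col3a1, a fibrillar collagen gene, at 101.9, 77.2 and 66.9 CPM in KO and 26.4, 18.4 and 25.8 CPM in WT. Of 15 choroid plexus genes 12 had positive values (median 0.25) but 0 were called higher. Enpp2, which oligodendrocytes express too, fell (-0.71, edgeR adjusted p = 0.0482). The list sum was 710.1 to 1201 CPM in KO and 750.0 to 937.3 CPM in WT. Enpp2 made up 218.7, 221.8 and 155.6 CPM of it in KO replicates 1 to 3, against 323.4, 281.0 and 373.3 CPM in WT replicates 1 to 3. Ttr, the main secreted product of choroid plexus, stood at 674.8, 922.8 and 511.5 CPM in KO, against 391.8, 564.9 and 514.5 CPM in WT (log2 fold change 0.52, SE 0.197, edgeR adjusted p = 0.406, and 0.0144 with the replicate block). Mean deviations of the choroid plexus list, Enpp2 included, were 0.16, 0.30 and -0.18 in KO replicates 1 to 3. In WT replicates 1 to 3 they were -0.31, -0.13 and 0.15, so the groups overlapped there. Those of the 9 genes did not overlap, and neither did those of the meningeal fibroblast list. The meningeal values were 0.70, 0.32 and 0.21 in KO, against -0.45, -0.42 and -0.36 in WT. Clic6, a choroid plexus channel gene, was at 0.68 (SE 0.213, edgeR adjusted p = 0.271). Tanycytes are ependymal cells of the third ventricle. Of 9 genes listed as their markers, 6 were positive and the median was 0.14. Which cells of the brain gave these transcripts was not tested. None was called by edgeR without the block, and 2 had an unadjusted p under 0.05. These were Dio2 at -0.40 (SE 0.0993), which fell with the replicate block (edgeR adjusted p = 0.0156) and with DESeq2 (0.0319), and Vcan at -0.43 (SE 0.166), which fell with the block (edgeR adjusted p = 0.0226) but was not called by DESeq2 (0.314). The tanycyte list summed to 249.7 to 295.5 CPM in KO and 259.3 to 316.7 CPM in WT. Cerebellar granule cell genes summed to 246.4 to 958.7 CPM in KO and 206.0 to 846.9 CPM in WT, with 0 of 10 called by edgeR or DESeq2 and 0 at an unadjusted p under 0.05; with the replicate block 3 rose. No marker of these lists was at 0 in every library. The part of these cell types in the values of the 9 genes was not tested.

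**Figure D5:**
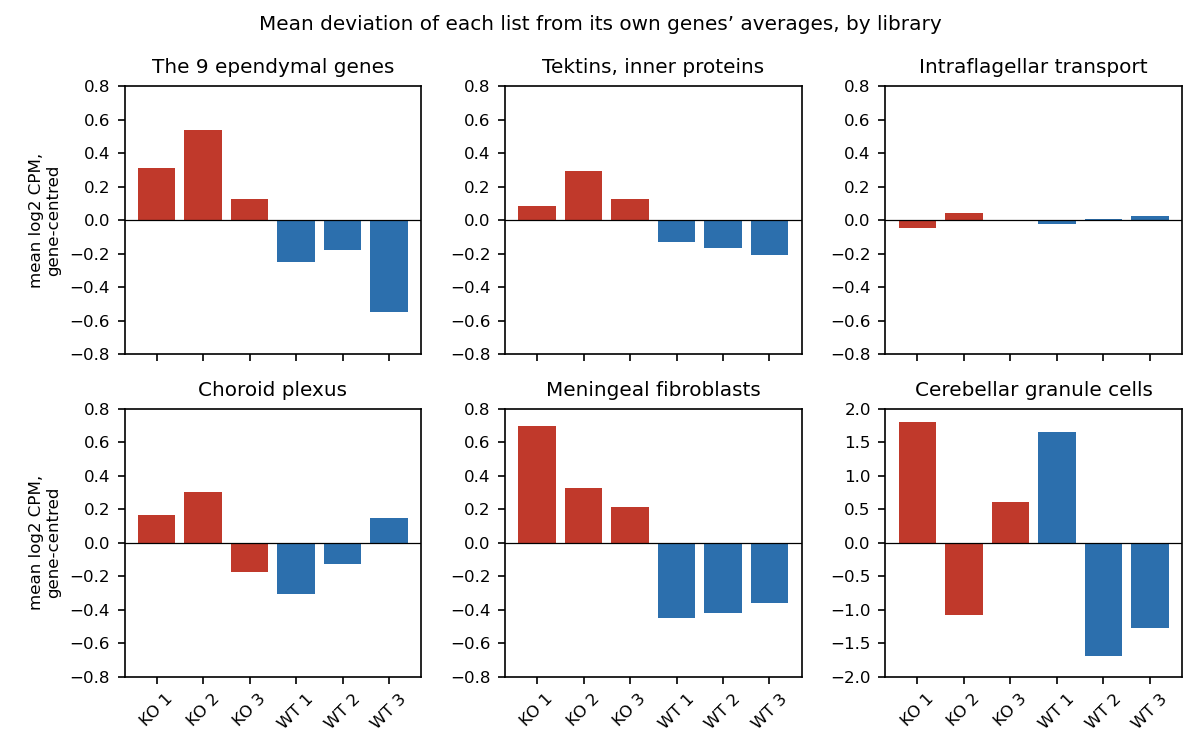
Mean deviation of the log2 CPM of a list's tested genes from each gene's average over the 6 libraries, for KO libraries (red) and WT libraries (blue); the cerebellar panel has a wider axis. The 9 ependymal genes lie at 0.13 to 0.54 in KO and at -0.55 to -0.18 in WT, and transport genes lie between -0.05 and 0.04. Meningeal fibroblast genes are separated too, at 0.21 to 0.70 in KO and at -0.45 to -0.36 in WT.

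Genes with the most similar profile over the 6 libraries were found by the root mean square difference of log2 CPM, each gene centred on its own mean, among genes averaging 1 CPM or more (15715 for Foxj1). Nearest to Foxj1 outside the lists were Gm14204 (0.0389), Sat1 (0.0409), Ptrh2 (0.0420), AK172704 (0.0440) and Gse1 (0.0486), where the profile of Foxj1 itself deviates from its mean by 0.155. Nearest to the mean profile of the 9 genes were Zfp57 (0.0589), Serpinf1 (0.0759), Birc5 (0.0774), Ssc5d (0.0787) and Aldh1a7 (0.0827), where that profile deviates by 0.366. Of the 9 themselves, Rarres2 was nearest to the mean profile (0.128, rank 18 of 15716) and Tmem212 farthest (0.504, rank 12871). Each of the 9 is part of that mean, which draws its own distance down, so these ranks are not like those of other genes.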

How the data were processed

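Values deposited by the authors were integer read counts for each gene and, beside them, normalized signal, which equals those counts over 1 size factor a library (0.936 to 1.05). Trizol extraction and paired-end mRNA TruSeq sequencing are per the labels' protocols. The submitters' processing notes list mm10 and, with no roles or order, STAR 2.3.0e, DESeq2, FastQC 0.11.2, featureCounts 1.5.0 and Trimmomatic 0.32. Strand and multi-mapping settings are not given in the sources used here, so overlapping genes may share reads.

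The deposited counts were filtered with filterByExpr, scaled with TMM and compared with edgeR 4.0.16 (glmQLFit, glmQLFTest; R 4.3.3; 4 residual degrees of freedom, no covariate). CPM are TMM-scaled. Libraries of a group differed by 6.75 to 27.4 times the chi-square of counting noise, so none was treated as a duplicate. No label says that samples are separate animals. Xist or Gabra6 differed strongly between every pair of libraries within a group, so these were not repeats of the same RNA. The p-values measure spread among these libraries only. That spread includes sex and cerebellar tissue, and its share from separate animals is not given.

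Replicate numbers 1 to 3 occur in both groups. Samples with the same number deviated together from their group means (correlations 0.351, 0.334 and 0.177, all above the limit of 0.1). Samples with different numbers were not compared in this way. Both libraries numbered 1 held cerebellar transcripts, and both numbered 2 had high Xist and no Gabra6 counts. Pairing and these shared traits therefore cannot be told apart. The numbers were taken as pairs on the correlations alone, since no label says what they stand for. A fit blocked by replicate number (2 residual degrees of freedom) is given where it changes a call. Other fits used limma 3.58.1, DESeq2 1.42.0, other scalings and filters, terms for cerebellar transcripts (Gabra6 above 5 CPM) and sex, offsets adjusted for exonic length (loess span 0.5), and each library left out.

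In the 9 cilium and ependymal lists 147 entries matched by symbol, 16 by an older RefSeq symbol and 5 not at all. Loci and exonic lengths are from GENCODE M21 (mm10). In each list the called genes and the genes with the smallest p are named, except 1 that is not reported here, and similar profiles used log2(CPM + 0.1). The 9 genes and the lists were chosen with earlier results of these data known. The edgeR test was tested on simulated counts.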

Additional observations from a re-analysis of the deposited data

How the results depend on the processing

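Of the 9 genes, 0 were called without each library in turn (0 to 0) and in all other alternatives except 4: 1 with DESeq2, 1 with the replicate block, 1 with length-adjusted offsets and the replicate block (Rarres2 each time), and 3 among the libraries without cerebellar transcripts alone. Over the 22 alternatives, of 198 single-gene values 3 turned sign: Foxj1 (-0.190) and Dynlrb2 (-0.0475) among the libraries with cerebellar transcripts alone, and Dynlrb2 (-0.0102) with the sex term. The cause was not tested. No scaling turned a sign, and without each library Dynlrb2 ran from 0.03 to 0.65, Mlf1 from 0.25 to 0.71, Foxj1 from 0.03 to 0.24 and Tmem212 from 1.34 to 1.78. The block changed no other call among the 9. Of all genes, 199 were called, against 315 with DESeq2, 566 with the replicate block, 455 with length-adjusted offsets and the block, 129 with the sex term, 1254 among libraries without cerebellar transcripts, and 100 to 305 without each library (305 without KO replicate 1, 132 without KO replicate 3, 126, 110 and 100 without WT replicates 1, 2 and 3). Of the other cilium and ependymal genes 1 was called, against 3 with DESeq2, 5 with the block, 2 with the cerebellar term, 2 with length-adjusted offsets and the block, 17 among libraries without cerebellar transcripts, and 1 to 2 without each library. Low counts limit Tmem212, Dynlrb2 and Mia most. The promoter motif counts were the same in the 200 bases before the start.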
